A study of Arabidopsis thaliana with 18 samples.

Results

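Peak lists of histone H3 trimethylated at lysine 27 (H3K27me3) were compared between shoots of 2 wild-type accessions of Arabidopsis thaliana, Col and C24. They are natural inbred lines, and each had 2 ChIP-seq libraries, out of 18 libraries in the series. Peaks on chromosomes 1 to 5 were used. A gene was called marked in a library where that library's peaks covered at least 200 bp of its gene body, or all of a shorter gene. Of 37899 annotated genes, 11188 (29.5%) were marked in at least 1 of the 4 lists.

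All plants were 14-day-old seedlings without a treatment, raised on Murashige and Skoog plates in short days, with 8 h of light (22 °C) and 16 h of darkness (18 °C). Each ChIP used 1.5 g of shoots and a Millipore antibody, so a peak list averages over all shoot cell types. Further lists were set beside the 4, from wild-type F1 hybrids of Col and C24 (2 libraries) and from clf Col, clf C24 and their clf F1 (1 library each). The clf plants are mutant in CURLY LEAF (CLF), which encodes a histone methyltransferase. The Col mutant, clf Col, is a SALK T-DNA insertion line. The C24 mutant, clf C24, carries a point mutation made with EMS, within that gene's SET domain, so each mutant is 1 allele. Accession and allele thus cannot be told apart in any comparison of clf Col with clf C24. The mRNA of the series comes from clf Col, clf C24 and clf F1 (3 libraries each), so no wild-type mRNA was used. Separate cultures for the replicates are not stated, so errors and p-values cover the spread among the samples, which may be technical.

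H3K27me3 is placed by Polycomb repressive complex 2, in which CLF and SWINGER are the alternative catalytic subunits in vegetative tissue, and it lies over the bodies of genes that are kept silent. In seedlings it is known to cover regulators of flowers, seeds and meristems. FLOWERING LOCUS C (FLC), a repressor of flowering, is the classic plant gene silenced this way. Col carries a loss-of-function allele of FRIGIDA (FRI), an activator of FLC.

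Covered length and tag numbers differed between replicate numbers more than between accessions. Col replicates 1 and 2 had 4837 and 2879 peaks covering 16.7 and 4.29 Mb, against 6244 and 6314 peaks covering 15.6 and 6.51 Mb in C24. Tags (sequenced fragments counted under the peaks) came to 8266237 and 1112281 in Col replicates 1 and 2, against 5236783 and 840780 in C24. Median peak length was 2923 and 1301 bp in Col, against 2000 and 914 bp in C24. C24 replicate 2 stood apart in another way. It had peaks over 5 of 13 genes that are active in shoots, namely actin ACT8, glycolytic GAPC1, the Rubisco small subunit RBCS1A, the photosystem protein PSBO1 and the phosphatase subunit PP2AA3, while the other 3 lists had peaks over none of the 13. These 5 peaks held 78 to 170 tags at a fold enrichment of 2.62 to 4.13, a value of the authors' peak caller. Of the genes marked in C24 replicate 2 and present in the mRNA files, 22.0% averaged at least 10 RPKM (reads normalised to gene length and sequencing depth) in clf C24, against 9.42% for C24 replicate 1. This share was 12.5% and 7.8% for Col replicates 1 and 2, and 29.7% for all genes. For the 1970 genes marked in C24 replicate 2 alone it was 45.6%. Counts of genes marked in 1 accession alone, their shares in other lists and their mRNA counts are therefore given with and without C24 replicate 2.

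Few genes separated the accessions in both replicates. In both Col lists and neither C24 list 122 genes were marked (0.322% of all genes), and in both C24 lists and neither Col list 454 (1.2%). The difference between these counts changed with list length. With the same number of peaks kept per list (the highest-scored) the counts were 204 for Col and 158 for C24, and with the same covered length, an alternative chosen after seeing the data, 151 for Col and 149 for C24. All 4 lists shared 1569 genes (4.14%). The most frequent pattern followed the replicate number: 2331 genes were marked in both replicate 1 lists and neither replicate 2 list. Another 223 had the reverse pattern, and 83.4% of them were marked in clf Col and 78.9% in clf C24. Without C24 replicate 2, both Col lists and not C24 replicate 1 held 161 genes, and C24 replicate 1 and neither Col list held 1374. With 2 libraries against 2, an exact two-sided permutation test cannot go below p = 0.333, so the counts are a description.

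**Figure D1:**
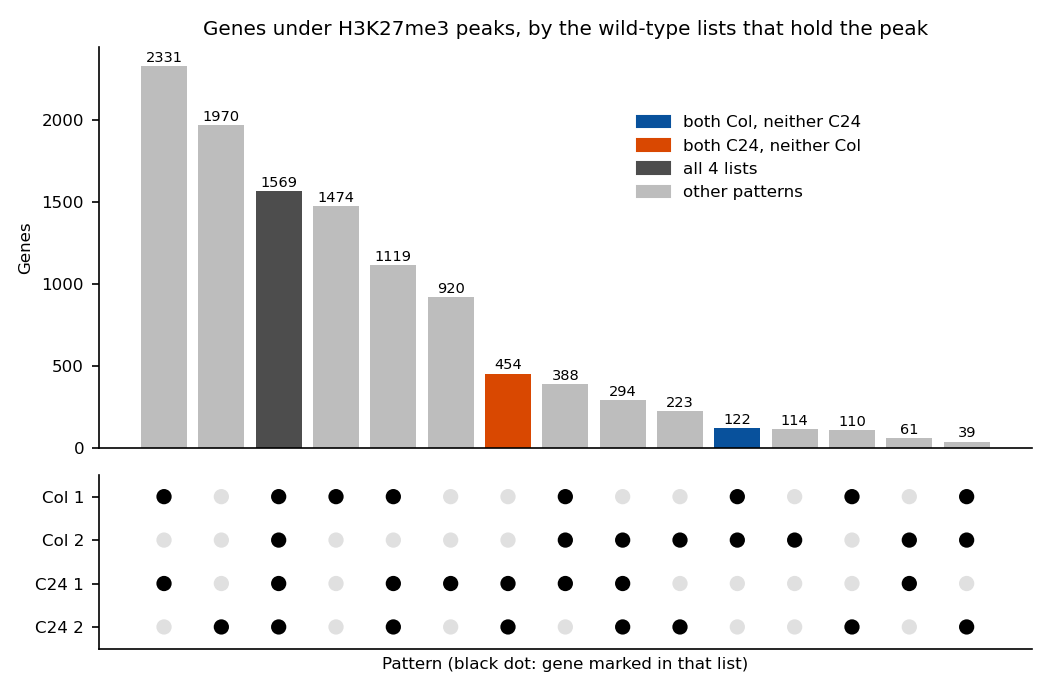
Number of genes (upper axis) for each combination of the 4 wild-type lists that mark them (black dots below), in blue for both Col and neither C24, in orange for both C24 and neither Col. The 122 blue and 454 orange genes are outnumbered by the 2331 genes that follow the replicate number and by the 1970 of C24 replicate 2 alone.

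Within replicate 1 the counts were near equal: 1745 genes (4.6%) were marked in Col and not C24, and 1729 (4.56%) in C24 and not Col. Within replicate 2 they were not, with 685 (1.81%) in Col and not C24 and 3653 (9.64%) in C24 and not Col. With the same number of peaks per list the replicate 2 counts were 1180 for Col and 1147 for C24. The Col replicate 2 list is the shortest of the 4, with 2810 genes marked, and 1119 genes were marked in the other 3 lists only. Of the 3653 genes, 38.2% were marked in clf Col and 43.0% in clf C24. The pairs also went in opposite directions at some genes. In 110 genes Col carried the peak in replicate 1 and C24 in replicate 2, and in 61 genes C24 carried it in replicate 1 and Col in replicate 2. FLC was among these 61. As shares of each list, 75.6% of the genes of Col replicate 1 and 75.8% of those of C24 replicate 1 were common to both. Within Col, 29.6% of replicate 1 genes and 75.4% of replicate 2 genes were common to both replicates, and within C24 48.2% and 59.5%.

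The 122 genes marked in Col alone included long stretches fully under peaks. AT1G61840 had 2743 and 2497 of its 2743 bp covered in Col replicates 1 and 2, under peaks at chr1:22846384-22850247 with 2311 tags and chr1:22848175-22849747 with 364 tags (TAIR10). Neither C24 list had a peak there. AT5G55770 was covered over all 2088 bp in both Col lists, with 2407 and 632 tags (the wider peak at chr5:22571198-22574916). Its near neighbour AT5G55800 had 1737 and 1579 bp covered under separate peaks with 2221 and 478 tags. RLP38 (AT3G23120), a receptor-like protein gene, had 2398 and 1816 bp covered in Col, with 3497 and 598 tags at chr3:8225420-8230295 in replicate 1. These tag numbers lie above the medians of all peaks of the same lists, 1248 in Col replicate 1 and 319 in Col replicate 2. The genes were picked by longest cover and tags move with covered length, so high tag numbers follow in part from the choice.

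AT5G10660 was the exception among the 12 longest in having some C24 cover, 100 bp in C24 replicate 1 beside 2253 and 1733 bp in Col. AT1G64255, AT5G02350, AT5G38000, AT2G02630, AT3G45450, AT5G43040 and AT5G40050 complete the 12 protein-coding genes with the longest cover, with 1469 to 2253 bp in Col replicate 1 and 1469 to 2253 bp in Col replicate 2, and none in C24. All 12 were marked in clf Col and clf F1 and in F1 replicate 1, and none in clf C24. Over the whole class, 117 of 122 genes had no peak bp at all in either C24 list. Of the class, 68.0% were protein-coding, against 72.4% of all genes. It held 14 long non-coding RNA genes (11.5% against 9.18%), 13 transcribed pseudogenes (10.7% against 2.44%) and 5 microRNA genes (4.10% against 0.860%). The median gene body was 1014 bp in the class against 1796 bp. MIR156a, a microRNA of the juvenile phase, lay inside Col peaks of 5648 tags at chr2:10670181-10679171 and 476 tags at chr2:10675273-10677086 over all its 123 bp, and clf Col and clf C24 both marked it. AGL58, a MADS-box gene, and ACT9, an actin gene, had 702 and 702 bp and 1626 and 1464 bp covered in Col. These last 3 were picked after their values were seen.

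The 454 genes marked in C24 alone included several with known roles. SMXL3 (AT3G52490), a SMAX1-like regulator of phloem formation, had 3293 and 2806 bp covered in C24 replicates 1 and 2, with 1690 and 222 tags at chr3:19455329-19458797 and chr3:19455657-19457321. PID2 (AT2G26700), a kinase related to the auxin transport regulator PINOID, had 2651 and 2225 bp covered with 1835 and 153 tags. GAD3, a glutamate decarboxylase gene, had 2701 and 2178 bp with 1521 and 151 tags. None of the 3 had a peak in either Col list, yet all 3 had one in clf Col, over 3699 bp of SMXL3, 2469 bp of PID2 and 2701 bp of GAD3.

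Genes of surface lipids and auxin conjugation were also among the 12 longest. GPAT6, an acyltransferase of cutin synthesis, had 3257 and 2076 bp covered in C24 with 3361 and 155 tags. KCS6, the condensing enzyme of cuticular wax, had 2449 and 1928 bp with 1630 and 155 tags. GH3.3, which joins auxin to amino acids, had 1946 and 2379 bp with 2787 and 491 tags at chr2:9860996-9865800 and chr2:9862178-9865585. These 3 were marked in clf Col as well, over 3257, 2379 and 2708 bp, so the Col gap held in the wild-type lists only. Of the other 6 genes, AT2G39850, AT1G12570 and AT2G43870 were marked in clf Col, and AT2G05642, AT5G28470 and AT5G44440 were not. AT1G12570 had 51 bp covered in Col replicate 2 beside 3185 and 1997 bp in C24.

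**Figure D2:**
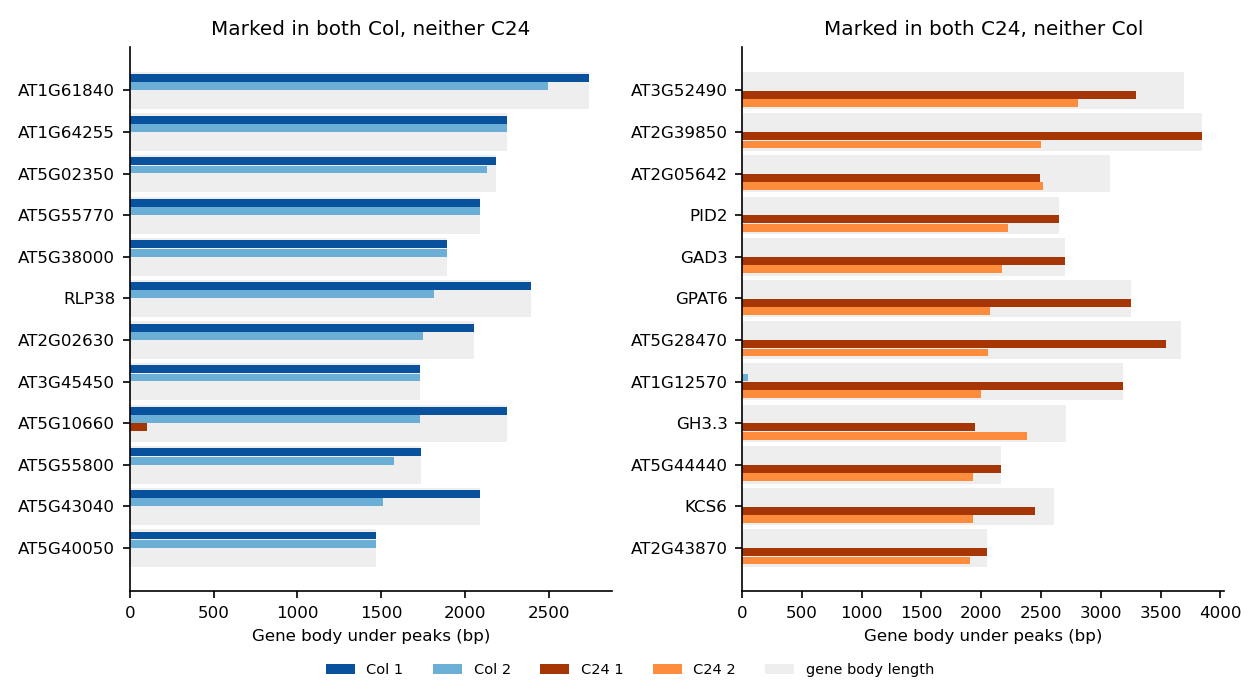
Base pairs of the gene body under peaks (horizontal axis) in each of the 4 wild-type libraries, for the 12 protein-coding genes with the longest cover marked in both Col and neither C24 (left) and in both C24 and neither Col (right), with grey bars for gene length. Cover in the other accession reaches 100 bp at AT5G10660 in C24 replicate 1 and 51 bp at AT1G12570 in Col replicate 2, and is 0 elsewhere.

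Peaks over the classes were near or above the typical peak of their lists in tags. The 454 genes lay under 401 peaks of C24 replicate 1, with a median of 731 tags beside 536 over the whole list, and under 432 peaks of C24 replicate 2, with a median of 110 tags beside 108. The 122 genes of the Col class lay under 102 peaks of Col replicate 1, with a median of 2330 tags beside 1248 over the whole list, and 105 peaks of Col replicate 2, with a median of 284 tags beside 319. Neighbouring genes share peaks, up to 3 genes on 1, so genes are not independent observations. Protein-coding genes made up 85.0% of the C24 class, and its median gene body was 1758 bp. Chromosome 2 held 22.1% of the Col class and 15.4% of the C24 class, beside 16.7% of all genes. Near the limit of 200 bp, 8 genes of the Col class had 200 to 299 bp covered in the Col library with less cover, and 12 further genes missed the class with 100 to 199 bp. The nearest were AT4G05710, inside at 202 bp, and AT2G07687, outside at 196 bp. For the C24 class these counts were 16 and 14, with AT5G46880 inside at 203 bp and AT3G45990 outside at 180 bp.

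Lists that played no part in sorting the genes separated the Col class clearly and the C24 class in part. Of the 122 genes marked in Col alone, 112 (91.8%) were marked in clf Col and 7 (5.74%) in clf C24, where 17.2% and 17.1% of all genes were marked. In the clf lists 106 of the 122 (86.9%) had a peak in clf Col and not clf C24, against 2.84% of all genes, and 1 had the opposite. Of the 454 genes marked in C24 alone, 246 (54.2%) were marked in clf Col and 354 (78.0%) in clf C24. The clf lists separated 119 of them (26.2%) in the C24 direction, against 2.72% of all genes, and 11 in the opposite direction. Genes marked in all 4 lists were marked in 99.4% of cases in clf Col and 98.7% in clf C24. Each clf group is 1 library, so these shares carry no test. Reads were placed on the Col genome, and clf C24 shares the accession of wild-type C24. A sequence change or deletion in C24 therefore cannot be told apart from a missing peak in both C24 and clf C24.

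Leaving out C24 replicate 2 drops a condition, so both classes can only grow. Of the 161 genes then marked in both Col lists and not in C24 replicate 1, 91.9% were marked in clf Col and 23.6% in clf C24. Of the 1374 genes then marked in C24 replicate 1 and neither Col list, 34.3% were marked in clf Col and 56.3% in clf C24, and 25.5% had a peak in clf C24 and not clf Col. Within replicate 1 alone, 27.7% of the genes marked in Col and not C24 had a peak in clf Col and not clf C24, and 3.09% the opposite. Of those marked in C24 and not Col, 20.8% had a peak in clf C24 and not clf Col, and 4.16% the opposite. Within replicate 2 alone, 29.2% of the Col genes separated in the Col direction and 1.46% in the C24 direction, and of the C24 genes 7.47% separated in the C24 direction and 2.68% in the Col direction.

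The hybrid lists differed in how much of the classes they carried. In the F1, 112 of the 122 Col genes (91.8%) were marked in replicate 1 and 37 (30.3%) in replicate 2, where 19.4% and 11.6% of all genes were marked. Of the 454 C24 genes, 61.7% and 49.1% were marked in F1 replicates 1 and 2. The clf F1 list marked 74.6% of the Col genes and 72.9% of the C24 genes. Without C24 replicate 2, F1 replicates 1 and 2 marked 88.2% and 41.6% of the 161 Col genes. Of the 1374 C24 genes they then marked 53.0% and 24.7%. The clf F1 list marked 79.5% of these 161 and 49.8% of these 1374. F1 replicate 2 was like the replicate 2 lists of the parents in its shorter peaks, so the gap between the F1 replicates moves with the replicate number. The part of that gap in the shares was not tested.

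**Figure D3:**
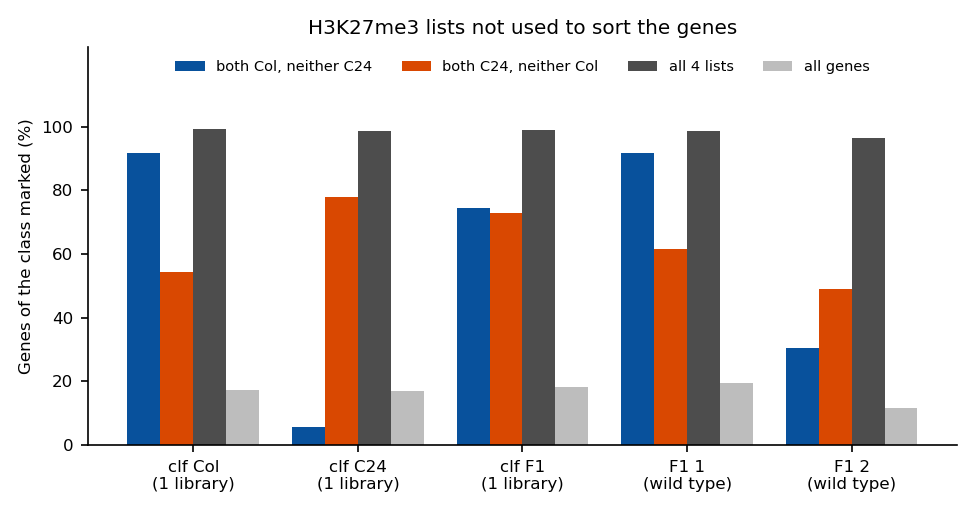
Share of genes marked (vertical axis, percent) in 5 lists that did not sort them, for genes marked in both Col and neither C24 (blue), in both C24 and neither Col (orange), in all 4 lists (dark grey) and for all genes (light grey). The blue bar falls to 5.74% in clf C24 beside 91.8% in clf Col, whereas the orange bars are 78.0% in clf C24 and 54.2% in clf Col. A sequence change or deletion in C24 cannot be told apart from a missing peak in clf C24.

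Known genes in 12 lists, with 209 members, were then followed gene by gene. None of the 209 was marked in both Col lists and neither C24 list, and 7 (3.35%) were marked in both C24 lists and neither Col list, beside 1.2% of all genes. All 4 lists marked 52 members (24.9%, against 4.14% of all genes), and no list marked another 52 (24.9%, against 70.5%). Within replicate 1, 7 members (3.35%) were marked in Col and not C24 and 26 (12.4%) in C24 and not Col. Over all genes these shares were 4.6% and 4.56%. Within replicate 2 the counts were 9 (4.31%) and 42 (20.1%), against 1.81% and 9.64% of all genes. Without C24 replicate 2, the Col pattern took in 3 members (1.44%, against 0.425% of all genes), the homeobox genes KNAT1 and WOX4 and the Polycomb gene MEA. All 3 were marked in C24 replicate 2, over 1409, 1473 and 3339 bp, and in clf C24, over 3204, 1662 and 3857 bp. The C24 pattern took in 12 (5.74%, against 3.63%). For each list below, the shares of all genes are 18.9% and 7.41% in Col replicates 1 and 2, against 18.8% and 15.2% in C24.

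Floral regulators were the most evenly marked. Of 18 members, 14 and 17 were marked in Col replicates 1 and 2, against 14 and 16 in C24, where 18.9%, 7.41%, 18.8% and 15.2% of all genes were marked in the same 4 lists. All 4 lists marked 12 members, among them the petal and stamen genes AP3 and PI, the SEPALLATA genes SEP1, SEP2 and SEP3, and LEAFY (LFY). AP3 was covered over 2175 and 2175 bp in Col, against 2175 and 1025 bp in C24. AGAMOUS (AG), STK, AP1 and FUL had peaks in both replicate 2 lists and both of the clf parents, and in neither replicate 1 list. AG had 0 and 4674 bp covered in Col, against 0 and 1464 bp in C24.

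At the flowering-time gene FLC the accession with the peak changed with the replicate. It had 0 and 3361 bp covered in Col replicates 1 and 2, against 2492 and 0 bp in C24. Its Col peak in replicate 2 lay at chr5:3176088-3180014 with 1213 tags, and its C24 peak in replicate 1 at chr5:3176957-3181509 with 1018 tags. The accessions overlap, as each had the peak in 1 replicate of 2. Outside these lists FLC was covered over 2335 bp in clf Col and not in clf C24, and over 1022 bp in F1 replicate 1.

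MAF1, a MADS-box relative of FLC, was the list's member marked in C24 alone. It had 0 and 0 bp covered in Col, against 4752 and 1558 bp in C24, under peaks of 2836 tags at chr1:28954425-28960468 and 113 tags at chr1:28958125-28959092. Neither clf Col nor clf C24 marked it. Its relatives MAF2 and MAF3 had no peak in any of the 4 lists, and MAF4 had 3226 and 1314 bp in Col, against 2531 and 0 bp in C24. MAF5 had 4418 and 0 bp in Col, against 4099 and 1397 bp in C24. The flowering activators SOC1 and TSF were marked in all 4 lists, and FT, the mobile signal, had 0 and 1024 bp in Col, against 2627 and 0 bp in C24. FRI itself had no peak in any of the 4. In all, 15 and 11 of 27 members were marked in Col, against 19 and 11 in C24, and 5 in all 4 lists.

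Meristem and leaf regulators split by library. Of 18 meristem and boundary genes, 6 and 12 were marked in Col, against 10 and 16 in C24. STM, the homeobox gene that keeps meristem cells undifferentiated, had 0 and 3482 bp covered in Col, against 3345 and 1863 bp in C24. KNAT2, KNAT6 and the boundary gene CUC2 had the same pattern, with Col replicate 1 the list without a peak. WUS and CLV3, the stem cell regulator and its peptide signal, had peaks in both replicate 2 lists and in neither replicate 1 list. WOX2, a homeobox gene of the early embryo, was the member marked in C24 alone, with 756 and 1036 bp covered in C24 and none in Col. clf C24 marked it over 1360 bp and clf Col did not.

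Of 14 leaf polarity genes, 3 and 9 were marked in Col, against 8 and 12 in C24. The YABBY genes YAB2, YAB5 and INO, which specify the lower side of lateral organs, were marked in all 4 lists. KAN3, a KANADI gene of the same side, was the member marked in C24 alone. It had 2983 and 847 bp covered in C24 replicates 1 and 2, with 1210 and 99 tags, and was marked in clf Col over 2031 bp and in clf C24 over 2066 bp. Its relatives KAN1, KAN2 and KAN4 were marked in 3 lists each, with Col replicate 1 the exception.

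Seed genes were marked in most lists. Of 22 members, 18 and 12 were marked in Col, against 18 and 17 in C24, and 8 in all 4 lists, among them the maturation regulators FUS3 and ABI3 and the storage protein genes CRA1 and CRB. DOG1, a seed dormancy gene known for its natural variation, was the member marked in C24 alone. It had 0 and 0 bp covered in Col, against 1695 and 1420 bp in C24, under peaks of 1932 tags at chr5:18589812-18594969 and 179 tags at chr5:18590087-18591513. The clf lists did not separate the accessions at DOG1, with 1570 bp covered in clf Col and 1630 bp in clf C24.

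Auxin and root genes gave a single such member each. YUC5, an auxin synthesis enzyme, had 1800 and 1349 bp covered in C24, with 1472 and 168 tags, and none in Col. COBL9 (AT5G49270), a root hair gene, had 2647 and 1422 bp covered in C24, with 2406 and 184 tags, and none in Col. Both were marked in clf Col, over 1682 and 2589 bp, and in clf C24, over 1498 and 809 bp. Among 22 genes of auxin synthesis and transport, 12 and 13 were marked in Col, against 14 and 17 in C24, and 10 in all 4 lists, among them TAA1, YUC1, YUC4 and PIN2. Among 9 root genes, 3 and 4 were marked in Col, against 5 and 5 in C24.

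**Figure D4:**
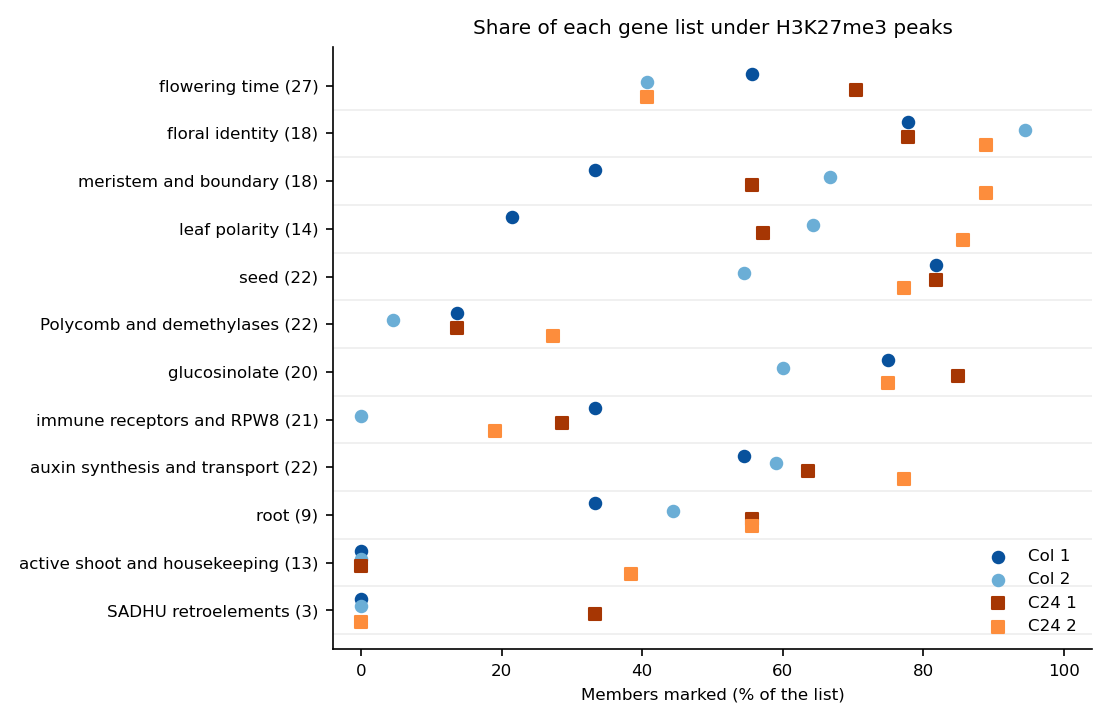
Share of the members of each of 12 gene lists (rows, number of members in brackets) marked in each wild-type library (horizontal axis, percent), with circles for Col and squares for C24, dark for replicate 1 and light for replicate 2. Replicate 1 and replicate 2 of the same accession often lie further apart than Col and C24 of the same replicate, as for floral identity genes (77.8% and 94.4% in Col, 77.8% and 88.9% in C24).

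Defence chemistry and immune genes were marked to different extents. Of 20 glucosinolate genes, 15 and 12 were marked in Col, against 17 and 15 in C24, and 10 in all 4 lists. AOP2 and AOP3, neighbouring genes of side-chain modification, were covered over 2409 and 2409 bp and over 2592 and 2592 bp in Col, against 2409 and 2303 bp and 2592 and 1868 bp in C24. Of 21 immune receptor and RPW8-type genes, 7 and 0 (33.3% and 0%) were marked in Col, against 6 and 4 (28.6% and 19%) in C24. Over all genes these shares were 18.9% and 7.41% in Col, against 18.8% and 15.2% in C24. ADR1, a helper immune receptor, was the member marked in C24 alone, with 1178 and 855 bp covered under peaks of 204 and 97 tags, below the list medians of 536 and 108. The mildew resistance homologs HR1 to HR4 were under peaks in Col replicate 1, at 1077, 1145, 1563 and 1250 bp. In C24 replicate 1 HR1, HR2 and HR3 were covered over 554, 999 and 1347 bp, and HR4 was not covered. No replicate 2 list marked any of the 4.

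Genes of the Polycomb machinery itself were also followed. Of 22 Polycomb and demethylase genes, 3 and 1 (13.6% and 4.55%) were marked in Col, against 3 and 6 (13.6% and 27.3%) in C24, beside 18.9% and 7.41% of all genes in Col and 18.8% and 15.2% in C24. EMF1, a Polycomb protein of plants, was marked in all 4 lists, with 3712 and 1943 bp covered in Col, against 3284 and 1421 bp in C24. CLF and SWN had no peak in any of the 4. Among the 6 genes marked in C24 replicate 2, VRN5, VEL1 and ATX1 had no peak in either Col list, in C24 replicate 1 or in the clf parents. The SADHU retroelements had a single peak, in C24 replicate 1 over 702 bp of SADHU3-1.

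Tag numbers could be compared where every list had a peak. Merging the 4 lists gave 8841 regions, of which 1527 held a peak of each, with a median length of 4230 bp. None passed an adjusted p below 0.05 in edgeR's quasi-likelihood test of tag numbers with accession as the only term, and the smallest adjusted p was 0.296. At an unadjusted p below 0.05, 58 regions (3.8%) were higher in Col and 11 (0.72%) lower. DESeq2 called 11, of which 9 were higher in Col and 2 lower. Without C24 replicate 2, edgeR called 30, of which 29 were higher in Col and 1 lower, with the lone C24 library assumed to vary like the 2 of Col. Tags were summed over peaks called separately in each list, so they move with covered length, which in these regions was 6.82 and 2.48 Mb in Col, against 5.54 and 2.18 Mb in C24. By tag number 1248 (81.7%) lay within 2-fold in both replicate pairs, 34 (2.23%) were at least 2-fold higher in Col in both and 2 at least 2-fold lower.

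The regions of smallest p, picked after their values were seen, were all higher in Col. The first, at chr1:25990934-25996026 over AT1G69140 and AT1G69150, held 4467 and 584 tags in Col, against 350 and 66 in C24. After scaling for library size the Col pair values were 6.83-fold and 4.40-fold those of C24 in replicates 1 and 2. Its peaks also covered 5093 and 2329 bp in Col, against 1025 and 654 bp in C24. Per covered kb it held 877 and 251 tags in Col, against 342 and 101 in C24. At chr5:19194720-19200490, over the immune receptor gene ADR1-L3 and 2 neighbours, 3759 and 819 tags in Col stood against 595 and 72 in C24. There the Col peaks covered 5771 and 3133 bp, against 1334 and 474 bp in C24, and per covered kb the region held 651 and 261 tags in Col, against 446 and 152 in C24. After normalization these values per kb gave a log2 difference of -0.08 (Col minus C24, not called by limma). At ADR1-L3 the covered stretch was wider in Col in both pairs.

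**Figure D5:**
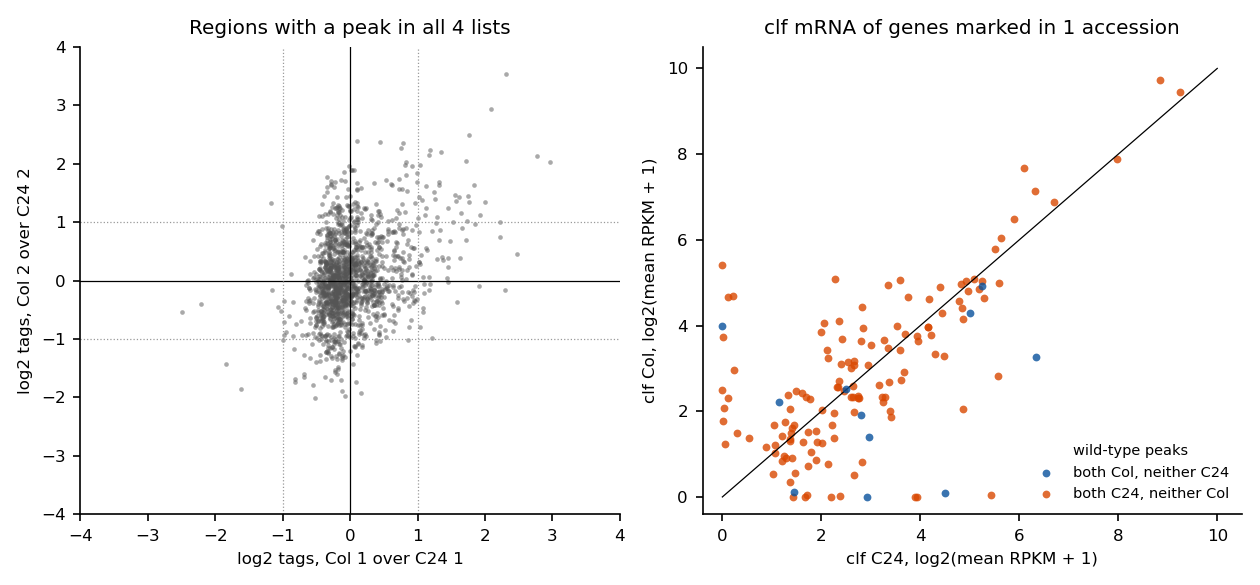
Left, log2 ratio of scaled tag numbers of Col over C24 in replicate 1 (horizontal axis) and replicate 2 (vertical axis) for the 1527 regions with a peak in all 4 lists, dotted lines marking 2-fold. Right, clf C24 mRNA (horizontal axis) and clf Col mRNA (vertical axis), as log2 of mean RPKM plus 1, of the 11 tested genes marked in Col alone (blue) and the 136 marked in C24 alone (orange), beside the line of equality. Of the 11 blue genes 8 were called lower in clf Col and 2 higher, beside 31.8% and 12.7% of all tested genes. Several of them passed the filter through the mutant in which they are high.

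Transcripts were measured in clf mutants, so they do not give wild-type expression of the same genes. CLF mRNA was 1.21, 0.99 and 1.37 RPKM in clf Col replicates 1 to 3, against 7.20, 7.14 and 8.35 RPKM in clf C24, so the insertion line has the lower level. Of 17819 genes tested with limma on log2(RPKM + 1), 2260 (12.7%) were higher in clf Col than clf C24 and 5675 (31.8%) lower at an adjusted p below 0.05. With quantile normalization the split was 3624 (20.3%) higher and 3833 (21.5%) lower, and the median over all of them was -0.01 in place of -0.13 (log2 difference). Shoots are mixed tissue, and fewer cells of a type cannot be told apart from less RNA per cell. Reads were placed on the Col genome, so a sequence change or deletion in C24 cannot be told apart from a lower C24 level of a peak or transcript.

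Most genes of the Col class were close to silent in both mutants. Of 96 in the mRNA files, 42 were listed at 0 in all 6 libraries and 11 reached the filter of 1 RPKM in 3 libraries. Of these 11, 2 were higher in clf Col and 8 lower, under either normalization. Over all tested genes 12.7% were higher and 31.8% lower (20.3% and 21.5% with quantile normalization). Without C24 replicate 2 the class had 21 tested genes, of which 3 were higher and 14 lower. Several of the 11 passed the filter through the mutant in which they are high. Such was AT4G24420, listed at 0 in all 3 clf Col libraries and at a mean of 6.60 RPKM in clf C24. With no filter 54 of the 122 genes were tested, of which 11 were higher in clf Col and 13 lower. Over all 24937 genes then tested, 2550 were higher and 6334 lower. No lean of the class is therefore read from the 11 or the 21. AT2G35810 was 7.80, 9.36 and 8.47 RPKM in clf Col, against 75.1, 82.4 and 82.1 RPKM in clf C24, a log2 difference of -3.09 ± 0.08 (SE; limma adjusted p = 8.4e-11). The groups do not overlap, and the gene was covered over 1439 and 1039 bp in wild-type Col and over 1439 bp in clf Col, with no cover in wild-type C24 or clf C24. COW1 (AT4G34580), a phosphatidylinositol transfer protein of root hairs, was 1.47, 1.72 and 1.71 RPKM in clf Col, against 6.70, 6.79 and 6.86 RPKM in clf C24. The actin-depolymerizing factor gene ADF5 averaged 18.6 ± 2.0 RPKM in clf Col and 31.2 ± 2.9 RPKM in clf C24 (SD, n = 3 each). SEC3A, an exocyst subunit, differed least of the 8 with -0.33 ± 0.07 (SE).

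The 2 genes that went the other way were NHX4 and AT3G46370. NHX4, a sodium-proton exchanger, was 4.11, 3.36 and 3.54 RPKM in clf Col, against 1.28, 1.17 and 1.16 RPKM in clf C24. AT3G46370 was 15.8, 13.6 and 15.4 RPKM in clf Col, against 0 in all 3 clf C24 libraries, although peaks covered 3995 and 1363 bp of it in wild-type Col and 2370 bp in clf Col. It is listed at 0 and without peaks in C24, the case in which a deletion in C24 could not be told apart from a silent gene. AT5G66310 was the gene of the 11 that did not pass, with a mean of 4.70 ± 0.06 RPKM in clf Col and 4.63 ± 0.35 RPKM in clf C24 (SD, n = 3 each). The remaining genes of the 11 were AT3G23109, AT1G30940 and AT5G42460, all lower in clf Col, with log2 differences of -4.40, -1.32 and -0.87. All 11 were named after their values were seen.

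Genes of the C24 class went in both directions. Of 421 in the mRNA files, 135 were at 0 in all 6 libraries and 136 were tested, of which 49 (36.0%) were higher in clf Col and 47 (34.6%) lower, beside 12.7% and 31.8% of all tested genes. With quantile normalization these counts were 52 and 37, beside 20.3% and 21.5% of all tested genes. The filter of 1 RPKM bears on these counts too, and with none 63 of 294 were higher and 60 lower. Over all 24937 genes tested with no filter, 2550 were higher and 6334 lower. Sorted without C24 replicate 2, the class had 352 genes tested under the filter of 1 RPKM. Of these, 29.55% were higher in clf Col and 34.38% lower, so the share of higher genes was smaller than with that list. DOG1 was 4.18, 4.29 and 4.25 RPKM in clf Col, against 1.17, 1.57 and 1.78 RPKM in clf C24, and rose in clf Col by 1.07 ± 0.11 (log2, SE; limma adjusted p = 9.5e-06). MAF1 was 29.6, 29.1 and 31.3 RPKM in clf Col, against 8.25, 9.38 and 10.1 RPKM in clf C24, and rose by 1.60 ± 0.08 (limma adjusted p = 3.3e-08). At both genes the mRNA was lower in the clf mutant of the accession that carried the wild-type peaks. KAN3 went the other way, with 4.11 ± 0.34 RPKM in clf Col and 5.65 ± 0.38 RPKM in clf C24 (SD, n = 3 each), a log2 difference of -0.38 ± 0.09 (SE; limma adjusted p = 0.0041).

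Among the 12 longest genes of the C24 class the directions also varied. GH3.3 was 4.17, 3.28 and 3.39 RPKM in clf Col, against 7.97, 6.53 and 11.2 RPKM in clf C24, and fell in clf Col by 1.03 ± 0.18 on the log2 scale (limma adjusted p = 0.00082). AT2G39850 was 14.9, 14.3 and 14.2 RPKM in clf Col, against 7.32, 6.13 and 4.95 RPKM in clf C24, and rose by 1.13 ± 0.11. KCS6, with means of 116 and 103 RPKM in clf Col and clf C24, was among the most abundant transcripts of the class in spite of its C24 peaks, and its call was lost without each of 5 single libraries. AT2G05642 was 0.10, 0 and 0.02 RPKM in clf Col, against 37.0, 44.0 and 44.7 RPKM in clf C24. It was thus transcribed in the clf mutant of the accession that carried its peaks, and at or near 0 in the other mutant. SMXL3 did not separate, with 3.10 ± 0.64 RPKM in clf Col and 3.06 ± 0.49 RPKM in clf C24 (SD, n = 3 each). WOX2, YUC5 and COBL9 stayed under the filter, at means of 0.34, 0.14 and 0 RPKM in clf Col and 0.06, 0.33 and 0 RPKM in clf C24.

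FLC, whose wild-type peaks overlapped between accessions, had one of the clearest mRNA differences. It was 10.4, 11.3 and 10.1 RPKM in clf Col, against 131, 144 and 146 RPKM in clf C24, and fell in clf Col by 3.61 ± 0.07 on the log2 scale (SE; limma adjusted p = 6.8e-12). Its peak was present in clf Col and absent from clf C24.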

How the data were processed

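Peak lists and mRNA values were taken as deposited. The submitters' processing notes name TopHat, Bowtie and TAIR10 without version or role; sources used here do not give the peak caller, a control sample or the counting program. Lists are per library, and each deposited line gives a position, a tag count (whole numbers, not normalized by the authors), a fold enrichment (the authors' ratio) and a score of the authors' caller of at least 50. mRNA values are RPKM deposited by the authors, 1 file per library, with depth not used here. Organelle peaks were left out. Of 34133 mRNA lines, 567 repeated gene IDs were dropped, which left 32992 genes.

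Gene bodies of the 37899 genes on chromosomes 1 to 5 came from the RefSeq TAIR10.1 annotation, and peak coordinates are those of the files (TAIR10). The 4 lists were merged into regions, and tags of regions with a peak in each list were tested with edgeR 4.0.16 (TMM, quasi-likelihood, Benjamini-Hochberg adjustment). log2(RPKM + 1) of genes with at least 1 RPKM in 3 of the 9 libraries was fitted with limma 3.58.1 (trended prior, Benjamini-Hochberg adjustment), and all differences run Col minus C24. Log2 differences on this scale understate changes of low genes. Alternatives used DESeq2 1.42.0, other overlaps, scores, list lengths and filters. mRNA libraries with the same replicate number deviated together (correlations of 0.297, 0.275 and 0.300). The limma fit of the Results did not pair them. With replicate number as a block, 2744 genes were higher in clf Col and 6800 lower, against 2260 and 5675 without it. All count and RPKM tests were tried on simulated data.

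Named genes were the 12 protein-coding genes per class with the longest cover in the carrying library with less cover, list members marked in 1 accession alone and up to 4 further members a list, and FLC. The classes, members and lists were chosen with earlier results of these data known.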

Additional observations from a re-analysis of the deposited data

Results flagged for a closer look

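Some genes marked in 1 wild-type accession alone had a peak in the other accession's clf list alone. Of the 122 genes marked in Col alone, 1 (0.82%) did so, PAP14, a purple acid phosphatase gene. Of all genes, 2.72% were marked in clf C24 and not clf Col. It had 1884 and 664 bp covered in wild-type Col and none in wild-type C24, and 197 bp in clf Col against 1653 bp in clf C24. Of the 454 genes marked in C24 alone, 11 (2.42%) did so, against 2.84% of all genes marked in clf Col and not clf C24. Both class shares thus lay below those of all genes. Among the 11 were the nitrate transporter gene NRT1.7, the cytochrome P450 gene CYP96A5, the triterpene synthase gene PEN1, the auxin-conjugating BRU6 and the retroelement RE2. Each clf group is 1 library, and the difference was not tested.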

How the results depend on the processing

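The number of genes marked in 1 accession alone depended on the lists more than on the overlap. Genes marked in Col alone numbered 122, and 73 with peaks scored at least 100, 204 with the same number of peaks in each list, and 161 to 1596 with 1 library left out in turn. Genes marked in C24 alone numbered 454, and 293 with at least 50% of the gene covered, 291 with scores of at least 100, 158 with the same number of peaks, 149 with the same covered length in each list (an alternative chosen after seeing the data) and 748 to 2424 with 1 library left out. With the same number of peaks the Col class was thus the larger one; 84 of the 122 and 83 of the 454 genes were kept. Genes marked in all 4 lists came to 783, 946 and 606 under the score, number and length settings and to 1608 to 2688 with 1 library left out. Within replicate 1, Col alone came to 766 with the same length, and C24 alone to 959 and 718 with the same number and length. Within replicate 2, Col alone came to 1180 with the same number, and C24 alone to 1695, 1492, 1147 and 1681 under the 50% cover, score, number and length settings. Overlaps of 1 bp and 500 bp changed no count by over 1.5 times. Of shared regions, 11 were called by DESeq2, 79 with the replicate block (62 higher in Col and 17 lower) and 0 to 30 with 1 library left out. The same-numbered ChIP libraries deviated together (correlation 0.73 over 1527 regions, 2 pairs). The log2 difference of the ADR1-L3 region was -0.081 on tags per covered kb. For mRNA, quantile normalization gave 3624 genes higher in clf Col; 1900 to 2209 were higher and 4374 to 5230 lower with 1 library left out. With the replicate block 2744 were higher and 6800 lower, within 1.5 times of the main counts. For genes marked in Col alone, 11 were higher and 13 lower with no filter and 1 higher at 5 RPKM, with 2 and 8 in every case of a library left out. For genes marked in C24 alone, 25 were lower at 5 RPKM, and 45 to 47 were higher and 41 to 45 lower with 1 library left out. Among genes named by the rule the block changed the call of GPAT6 alone. SMXL3 (AT3G52490), which did not pass, ranged over -0.094 to 0.133 with 1 library left out, and AT5G66310 over -0.025 to 0.063, so both changed sign. The causes were not tested. Low tag numbers in the replicate 2 lists limit what can be called absent. Replicate 1 lists had gaps as well, at AG, STK, AP1, FUL, WUS and CLV3, which both replicate 2 lists and both clf parents marked. Col replicate 1 was the only one of the wild-type Col and C24 lists without a peak at STM, KNAT2, KNAT6, CUC2, KAN1, KAN2 and KAN4. Absence from Col replicate 1 is a condition of the C24 class, so it is limited too.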

Other observations

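Salicylic acid and defence genes occurred in the C24 class, picked here after their values were seen. PR1, a marker of the salicylic acid response, had 902 and 727 bp covered in wild-type C24 and none in wild-type Col, and 902 bp in both clf Col and clf C24. Its mRNA was 0.16, 2.06 and 0.06 RPKM in clf Col, against 2.30, 13.0 and 3.02 RPKM in clf C24, all lower in clf Col (limma adjusted p = 0.039, a call lost without each of 3 single libraries). LURP1, a gene of late pathogen response, had 2316 and 892 bp covered in C24. Its mRNA was 1.63, 5.39 and 2.39 RPKM in clf Col, against 22.9, 36.9 and 24.6 RPKM in clf C24, a log2 difference of -2.89 ± 0.31 (SE; limma adjusted p = 1.8e-05). WAK1, a wall-associated kinase, had 2384 and 1310 bp covered in C24, and fell in clf Col by 1.21 ± 0.12 (log2, SE; limma adjusted p = 6.5e-06). AZI1, a lipid-transfer-type protein of systemic resistance, was 2.44, 4.46 and 2.09 RPKM in clf Col, against 8.79, 9.76 and 9.97 RPKM in clf C24. At these 4 genes transcripts were higher in the clf mutant of the accession that carried the wild-type peaks. The clf lists did not separate PR1, LURP1 (1326 bp in clf Col and 1499 bp in clf C24) or AZI1 (865 bp in both). WAK1 had 0 bp covered in clf Col and 1122 bp in clf C24.

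Other genes of the class were higher in clf Col. GLR2.7, a glutamate receptor-like channel gene, was 2.64, 2.37 and 2.18 RPKM in clf Col, against 0.01, 0.02 and 0 RPKM in clf C24, and peaks covered 4100 and 1373 bp of it in wild-type C24. UGT72E1, a glucosyltransferase of lignin precursors, was 12.1, 15.0 and 12.8 RPKM in clf Col, against 2.80, 3.50 and 2.70 RPKM in clf C24. IAA1, an auxin-response repressor, averaged 9.74 ± 2.45 RPKM in clf Col and 3.31 ± 0.03 RPKM in clf C24 (SD, n = 3 each), and was covered over 1038 and 911 bp in wild-type C24. In clf Col and clf C24, peaks covered 1038 and 1038 bp of IAA1 and 1928 and 1998 bp of UGT72E1. For GLR2.7 the cover was 0 and 4028 bp.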
